A study of Mus musculus with 28 samples.

Results

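The collagens, laminins and ADAMTS proteins of the extracellular matrix were followed in the frontal cortex of mice under chronic social stress or with induced type 2 diabetes. Members were the protein-coding genes whose symbols begin with Col, Lama, Lamb, Lamc or Adamts in the standard family forms, with Col1a1, Col1a2 and Col3a1 left out. The rule, which used names and no measured value, found 64 genes in the tables of both cohorts and 1 more, Col13a1, in the table of the stress cohort, out of 15263 genes in either table. Of these 65 genes, 35 code for collagen chains, 11 for laminin chains and 19 for ADAMTS proteases or ADAMTS-like proteins.

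Each of 28 male C57Bl/6 mice gave 1 RNA library, made from its frontal cortex. The chronic social stress group (CSS, 8 mice) had lived alone for 7 weeks and had met another mouse in 2 confrontations a day during the last 20 days. Its 8 control mice (CSS_control) were also 21 weeks old. The type 2 diabetes group (T2D, 6 mice, 30 or 31 weeks old) had received streptozotocin, a toxin of insulin-producing cells, at 75 mg/kg and a high-fat diet (43.2% of kcal from fat) over 21 weeks, and its 6 control mice (T2D_control) had the same range of ages. The labels describe all controls only as being under control conditions. Each library held the whole dissected tissue, so fewer cells of a type and less RNA per cell cannot be told apart in any value below.

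Laminins are cross-shaped trimers of 1 alpha, 1 beta and 1 gamma chain that polymerise on cell surfaces, and type IV collagen forms the second network of the same thin sheet, the basement membrane. In the brain that sheet surrounds blood vessels and lies under the pia, where endothelial cells, pericytes, fibroblasts and astrocytes contribute to it. ADAMTS proteases are secreted enzymes: some cut the proteoglycans that fill the space between neurons and form perineuronal nets, others trim the ends of procollagens, and the ADAMTS-like proteins share their accessory domains but have no protease.

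The totals of listed genes ran from 14.3 to 37.5 M counts in CSS_control, 15.2 to 21.9 in CSS, 12.1 to 21.6 in T2D_control and 14.3 to 22.7 in T2D. Markers of excitatory neurons, inhibitory neurons, astrocytes and oligodendrocytes, the main cells of cortex, were found in every library. Markers of striatal neurons were present as well, with a summed level of 172 to 1404 CPM (counts per M counts of the library, scaled by TMM), and 3 of 6 choroid plexus markers were listed in the T2D table, with a sum of 379 CPM in T2D 1, 361 in T2D 4 and 341 in T2D_control 3 and no more than 36.2 in the other T2D-cohort libraries.

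Single libraries stood apart in the matrix genes. CSS 2 was the lowest of the 8 stressed libraries in 31 of 65 members (47.7%, beside 15.3% of all genes), and CSS 5 was the highest in 22 (33.8%, beside 20.1% of all genes). In the other cohort T2D 4 was the highest of the 6 diabetic libraries in 27 of 64 members (42.2%, beside 17.7% of all genes), and T2D 1 was the lowest in 27 (42.2%, beside 26.7%). T2D_control 4 was the highest of its group in 0 members (beside 17.3% of all genes) and the lowest in 20 (31.25%, beside 16.5%). The summed level of 14 markers of meningeal and perivascular fibroblasts, of which Col1a1, Col1a2 and Col3a1 are 3, was 120 CPM in CSS 2, the lowest of its group, 281 in CSS 5 and 258 in T2D 4, the highest of their groups. In T2D 1 it was 126 and in T2D_control 4 it was 129, and neither was the lowest of its group. Pericyte and smooth muscle markers summed to 185 CPM in CSS 2 and 160 in T2D_control 4, the lowest of their groups. They summed to 284 in CSS 5 and 261 in T2D 4, the highest of their groups, and to 175 in T2D 1, which was not the lowest.

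In control cortex the matrix genes were expressed at low levels. Scaled by the exon length of each gene, their median was 0.869 CPM per kb in CSS_control, beside 5.56 CPM per kb over 13645 protein-coding genes, and 6 of 65 members lay above that coding median. The values also spread more between mice. The median coefficient of variation (SD over mean) of the members was 20.9% in CSS_control, beside 11.3% for coding genes, and 24.7% in T2D_control, beside 12.1%. Lamc3 varied least in CSS_control, at 8.10%, and Col6a4 most, at 69.7%.

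Col6a1, a chain of the beaded-filament type VI collagen, led the order at 29.8 ± 5.39 CPM per kb in CSS_control (SD, n = 8) and 21.1 ± 5.02 in T2D_control (n = 6). Its partner chain Col6a2 stood at only 1.99 ± 0.179 CPM per kb in CSS_control. The vascular basement membrane chains Col4a2, at 9.37 ± 1.29, and Col4a1, at 7.58 ± 1.31 CPM per kb, came next and differed by less than the sum of their SDs. Among the ADAMTS genes the length-scaled order was Adamts3, which trims procollagen, at 5.79 ± 1.13, Adamts4, a protease of brevican and aggrecan, at 4.49 ± 0.413, and Adamts10, which binds fibrillin, at 3.30 CPM per kb. Among laminins Lamc1, the gamma chain shared by most laminins, stood at 4.01 ± 1.03, Lamb2 at 3.70 ± 0.836 and Lamb1 at 2.61 CPM per kb, and the first pair differed by less than their spread. With the length of the longest transcript in place of all exons, the order of members correlated with the first at rho = 0.967. Places within each family still changed in CSS_control. Col25a1, a transmembrane collagen of neurons, moved from 6.69 to 12.9 CPM per kb and past Col4a1 and Col4a2. Adamts10, at 6.60 CPM per kb by that length, passed Adamts4, at 4.92. Lamb1, at 4.48, passed both Lamc1, at 4.36, and Lamb2, so the laminin order depends on the length used.

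**Figure D1:**
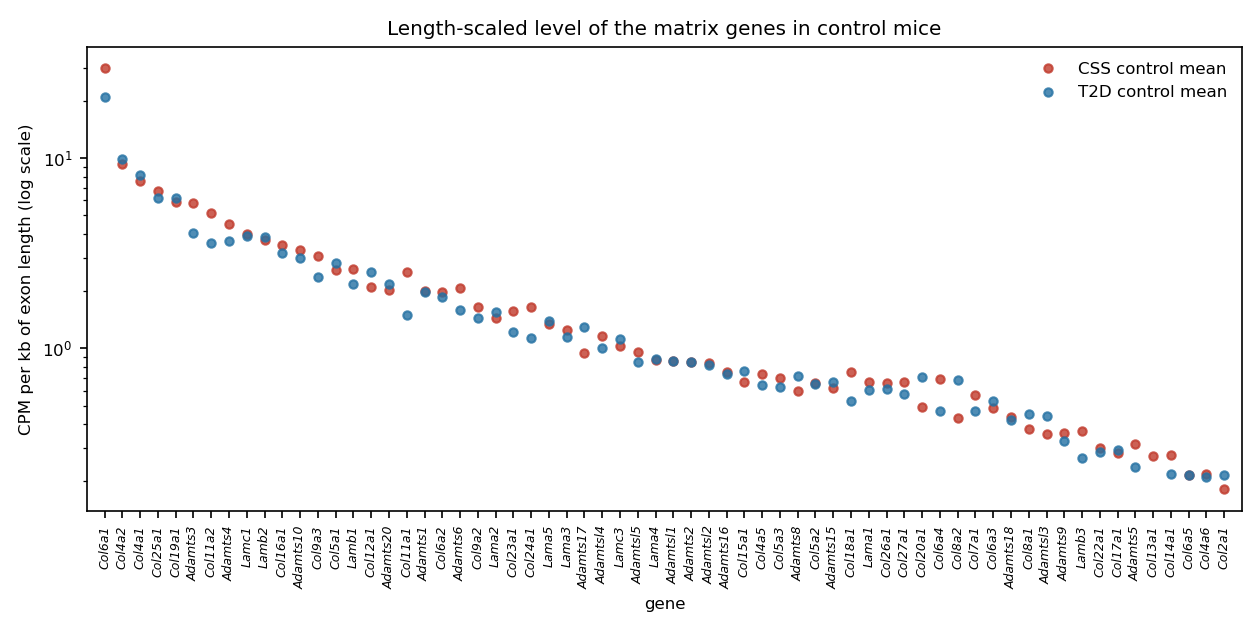
Mean level of the matrix genes in CSS_control (red) and T2D_control (blue), in CPM per kb of exon length on a log axis, ordered from high to low. Col6a1 stands at 29.8 CPM per kb in CSS_control, well above Col4a2 at 9.37, and most genes lie below 5.56, the median of coding genes.

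The first comparison asked which matrix genes differ between stressed mice and controls of the same age. Under social stress 4 of 65 members rose and 0 fell: the laminin chains Lamc3 and Lamb2, the ADAMTS-like gene Adamtsl3 and the collagen IV chain Col4a6 (edgeR quasi-likelihood test, Benjamini-Hochberg adjusted over 15097 genes, adjusted p under 0.05). Their fold changes lay between 1.50 and 1.88. Over all genes 4.52% passed the same threshold and 2.11% passed it as higher, beside 6.15% of the members. At an unadjusted p under 0.05 there were 16 members, 15 of them higher, or 24.6%, beside 21.5% of all genes, a share near that background. The 65 members had a median log2 fold change of 0.09, beside 0.01 for all genes, and 64.6% of them had a positive change, beside 51.3%. Without CSS 5 the median was 0.05 and 10 members, beside 2928 genes, had an unadjusted p under 0.05. Against CSS_control 5 to 8 alone the median was 0.17, and against CSS_control 1 to 4 alone it was 0.06. Stressed and control libraries overlapped for all 65 members, while they were fully separate for 0.609% of all genes.

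The stretches before the RefSeq starts of 3 of the risen genes are shown so that their composition can be set beside the values that follow. They are RefSeq sequence of GRCm38.p6, 5′ to 3′ on the strand of the gene, and capitals mark GGGCGG or its reverse complement CCGCCC, the core of a GC box.

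Adamtsl3, chr7:82335444-82335693, plus strand: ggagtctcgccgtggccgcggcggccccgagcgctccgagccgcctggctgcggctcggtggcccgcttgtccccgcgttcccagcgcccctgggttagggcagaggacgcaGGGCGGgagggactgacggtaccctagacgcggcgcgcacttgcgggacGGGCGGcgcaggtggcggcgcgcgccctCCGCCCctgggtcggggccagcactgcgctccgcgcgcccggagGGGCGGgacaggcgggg
Col4a6, chrX:141474077-141474326, minus strand: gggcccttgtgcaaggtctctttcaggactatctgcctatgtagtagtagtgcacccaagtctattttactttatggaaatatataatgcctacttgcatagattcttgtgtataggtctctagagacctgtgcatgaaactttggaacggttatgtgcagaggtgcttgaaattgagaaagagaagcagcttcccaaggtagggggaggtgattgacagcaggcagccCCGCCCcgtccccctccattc
Lamb2, chr9:108479612-108479735, plus strand: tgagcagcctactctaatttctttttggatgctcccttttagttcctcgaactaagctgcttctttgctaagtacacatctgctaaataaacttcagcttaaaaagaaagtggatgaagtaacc

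The 250 bases before Adamtsl3 held 4 matches and were 80% G or C, and those before Col4a6 held 1 match and were 47.6%. The 250 bases before the RefSeq start of Lamb2 held 0 matches and were 43.6% G or C. Of these, the first 124 lie before the GENCODE start of Lamb2 and are shown, while the others overlap a GENCODE exon of the same gene. Neither CCAAT nor its reverse complement ATTGG was found in any of these windows. GGGCGG on either strand stood in 32.7% of 32851 promoters in the RefSeq table and in 68.1% of the 47 promoters matched to 44 of the 65 members, while CCAAT on either strand stood in 33.8% and 29.8%. The median G and C content was 52.4% over all promoters and 61.2% over those of the members. All promoters covered 27025 genes and were not limited to the 15263 listed genes, from which the members come. They are therefore not a like baseline for the members, and promoters of the other listed genes were not compared. A match describes these letters and no binding.

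Lamc3 codes for the laminin gamma-3 chain, which in cortex is known for a role at the pial basement membrane. In the GRCm38 annotation it lies at chr2:31887291-31946539 on the plus strand, and 6.27% of its exon bases overlap Gm13441 on the opposite strand. Its level was 5.69, 6.01 and 6.96 CPM (lowest, median, highest) in CSS_control and 5.87, 8.87 and 12.3 CPM in CSS. All stressed libraries except CSS 2 lay above the highest control. Lamc3 rose by 0.59 ± 0.12 on the log2 scale (SE), or 1.50-fold, with adjusted p = 0.0164 in edgeR, and passed the threshold in each of 16 fits that left out 1 library.

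Lamb2 codes for laminin beta-2, a chain of the basement membranes of vessels and synapses, and lies at chr9:108479736-108490530 on the plus strand. It was measured at 17.7, 21.4 and 31.8 CPM in CSS_control and at 23.1, 36.9 and 41.1 CPM in CSS. Of 8 stressed libraries 5 lay above the highest control and all 8 above the control mean. The change was 0.62 ± 0.14 on the log2 scale, or 1.54-fold, with adjusted p = 0.0213 in edgeR, and without CSS 6 the adjusted p was 0.05002, just short of the threshold. The controls themselves were uneven, at 18.8 ± 1.92 CPM (SD, n = 4) in CSS_control 1 to 4 and 26.2 ± 4.43 CPM (n = 4) in CSS_control 5 to 8.

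Adamtsl3, a secreted ADAMTS-like glycoprotein gene at chr7:82335694-82614450 on the plus strand, had lower counts. Its values were 2.08, 2.49 and 3.85 CPM in CSS_control and 2.56, 4.68 and 8.17 CPM in CSS, with 5 stressed libraries above the highest control. It rose by 0.91 ± 0.24 on the log2 scale, or 1.88-fold (edgeR, adjusted p = 0.0380), and passed the threshold in 7 of 16 fits without 1 library, in which the adjusted p reached 0.0785.

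Col4a6, on the X chromosome at chrX:141165403-141474076 on the minus strand, codes for a chain of the less common network of type IV collagen. Levels of 0.918, 1.71 and 3.15 CPM in CSS_control stood beside 1.68, 3.32 and 3.86 CPM in CSS, and again 5 stressed libraries exceeded every control. The log2 change of 0.84 ± 0.23, or 1.79-fold, had adjusted p = 0.0445 in edgeR and passed in 5 of 16 fits without 1 library, with a largest adjusted p of 0.0906. The groups overlapped for all of these 4 genes.

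**Figure D2:**
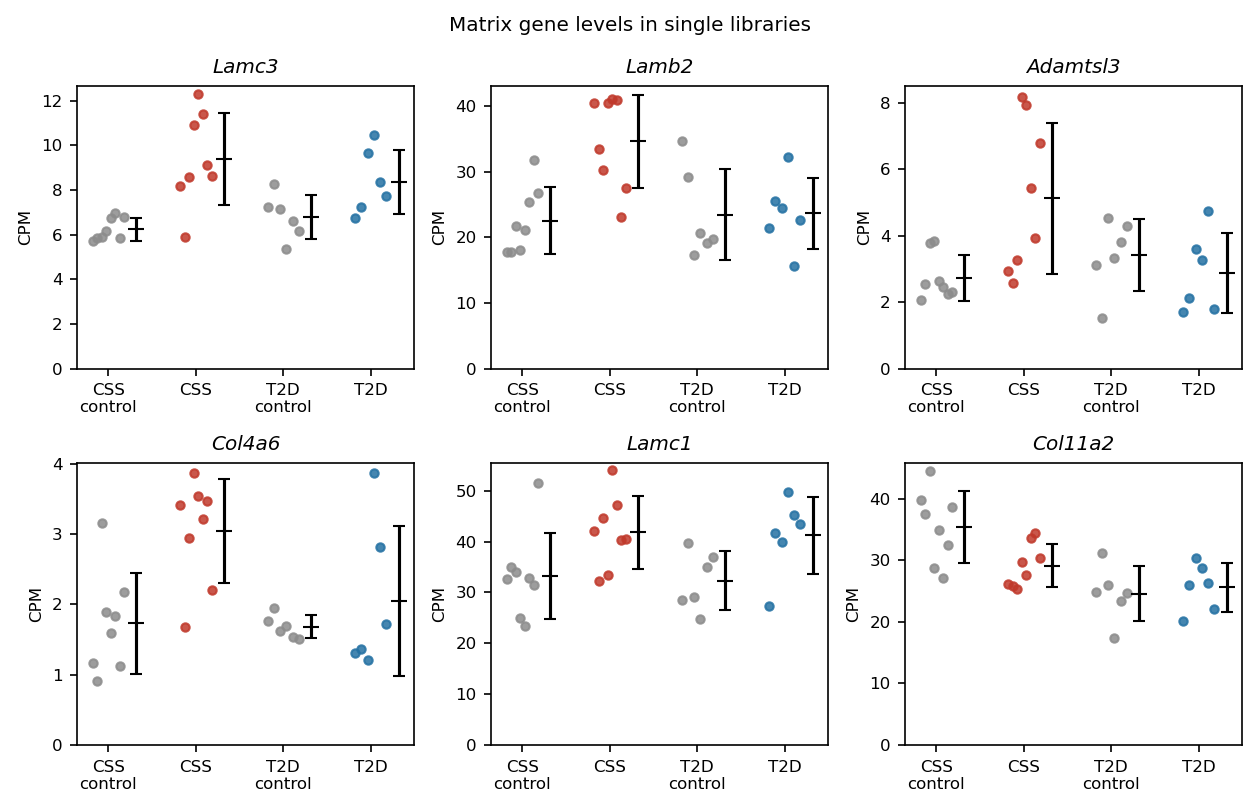
Level in CPM of the 4 genes that passed the threshold under social stress, and of Lamc1 and Col11a2, in each library of the 4 groups (points), with the mean and SD beside them (black). All stressed libraries except CSS 2 lie above the highest control for Lamc3, 5 of 8 do so for Lamb2, Adamtsl3 and Col4a6, and the T2D libraries overlap their controls for each gene.

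The number of members called depended on single libraries. It was 1 (Lamc3) without CSS 6, 2 without CSS 4, CSS 5 or CSS_control 1, 2, 5 or 7, and 6 without CSS_control 6, when Col11a2 and Col15a1 were added. Without CSS 2 it was 5, the added gene being Col8a2, which is named because it passed there. Without CSS_control 8 the count stayed at 4, with Lamc1 in and Adamtsl3 out (edgeR, adjusted p = 0.0531). The title codes place CSS_control 1 to 4 under C1 and CSS_control 5 to 8 under C2 or C3, and what the codes stand for was not tested. Against CSS_control 5 to 8 alone 0 of all genes passed in edgeR (1971 at an unadjusted p under 0.05), and the log2 changes were 0.51 for Lamc3, 0.40 for Lamb2, 1.08 for Adamtsl3 and 0.86 for Col4a6, with 13 members at an unadjusted p under 0.05. Against CSS_control 1 to 4 alone 1130 genes passed, 2 of them members, with log2 changes of 0.67 for Lamc3 and 0.89 for Lamb2. In that fit 11 members and 3670 genes in all had an unadjusted p under 0.05. The log2 change of Lamb2 against all 8 controls, 0.62, was over 1.5 times that against CSS_control 5 to 8.

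Among the laminins outside the called pair, the 5 alpha chains all had positive changes under stress and 0 passed, with a median log2 fold change of 0.21. The sign depended on the controls for Lama3, which changed by -0.14 against CSS_control 1 to 4 alone and by 0.27 against CSS_control 5 to 8. Lama2, the alpha chain of muscle and of vessels, was 23.6 ± 3.13 CPM in CSS_control (SD, n = 8) and 27.9 ± 4.26 in CSS (n = 8), a log2 difference of 0.24 (edgeR, adjusted p = 0.155). Lamc1 was 33.2 ± 8.48 CPM in CSS_control and 41.8 ± 7.09 in CSS, a log2 difference of 0.33 (edgeR, adjusted p = 0.157). Without CSS_control 8, the highest control, the difference was 0.45 and passed (edgeR, adjusted p = 0.0291). Of the 3 beta chains Lamb2 rose. Lamb1 was 25.9 ± 5.95 CPM in CSS_control and 24.2 ± 5.83 in CSS (log2 -0.10, edgeR, adjusted p = 0.752), and Lamb3, named to complete the class, had a log2 difference of -0.15 (edgeR, adjusted p = 0.828). The changes of these chains were not tested against each other.

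Of the 6 basement membrane collagens all had positive changes, with a median log2 fold change of 0.29, and 1, Col4a6, rose. Its neighbour Col4a5 was 4.89 ± 1.14 CPM in CSS_control and 6.44 ± 1.42 in CSS, 0.40 on the log2 scale (edgeR, adjusted p = 0.153). Col15a1, of the multiplexin collagens at the outer face of basement membranes, was 4.199 ± 1.82 CPM in CSS_control and 6.66 ± 2.06 in CSS, with all 8 stressed libraries above the control mean, and missed the threshold (log2 0.66, edgeR, adjusted p = 0.0951). The abundant vascular chains moved little: Col4a1 was 56.6 ± 9.75 CPM in CSS_control and 58.6 ± 7.36 in CSS, and Col4a2 was 62.0 ± 8.55 and 68.8 ± 8.09. Against CSS_control 1 to 4 alone the log2 change of Col4a1 was -0.04, so not all 6 were positive there.

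The 8 other fibril-forming collagens were split, 4 positive and 4 negative, and 0 passed. Col11a2, a minor fibril chain better known from cartilage, was the only member with a lower level at an unadjusted p under 0.05. It was 27.2, 36.3 and 44.6 CPM (lowest, median, highest) in CSS_control and 25.3, 28.7 and 34.4 CPM in CSS, with all 8 stressed libraries below the control mean and the groups overlapping. Its log2 difference of -0.29 had adjusted p = 0.0906 in edgeR, while DESeq2 gave 0.0474 and so counted it, with Col15a1, among 6 members. Changes of the 8 fibril-associated collagens ran from -0.10 to 0.43 on the log2 scale, those of the 9 beaded-filament, anchoring and short-chain collagens from -0.21 to 0.81, and those of the 4 transmembrane collagens from -0.21 to 0.07, with 0 called in each. The lowest of the beaded-filament group was Col6a1 itself, at 130.6 ± 23.6 CPM in CSS_control and 113 ± 13.8 in CSS (edgeR, adjusted p = 0.242).

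Among the ADAMTS genes the proteases did not pass the threshold. For the 7 proteoglycanases the median log2 change was 0.09, and Adamts1, a protease of versican and aggrecan, was 10.6 ± 1.31 CPM in CSS_control and 12.5 ± 1.88 in CSS (log2 0.23, edgeR, adjusted p = 0.178). Adamts4 was 21.6 ± 1.99 CPM in CSS_control and 20.7 ± 1.95 in CSS. Of the procollagen N-proteinases Adamts2 was 7.95 ± 1.01 and 9.10 ± 0.984 CPM (log2 0.20, edgeR, adjusted p = 0.223), and Adamts3 was 31.4 ± 6.15 and 29.0 ± 6.17. Of the 5 ADAMTS-like genes only Adamtsl3 passed, and their median change was -0.06.

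**Figure D3:**
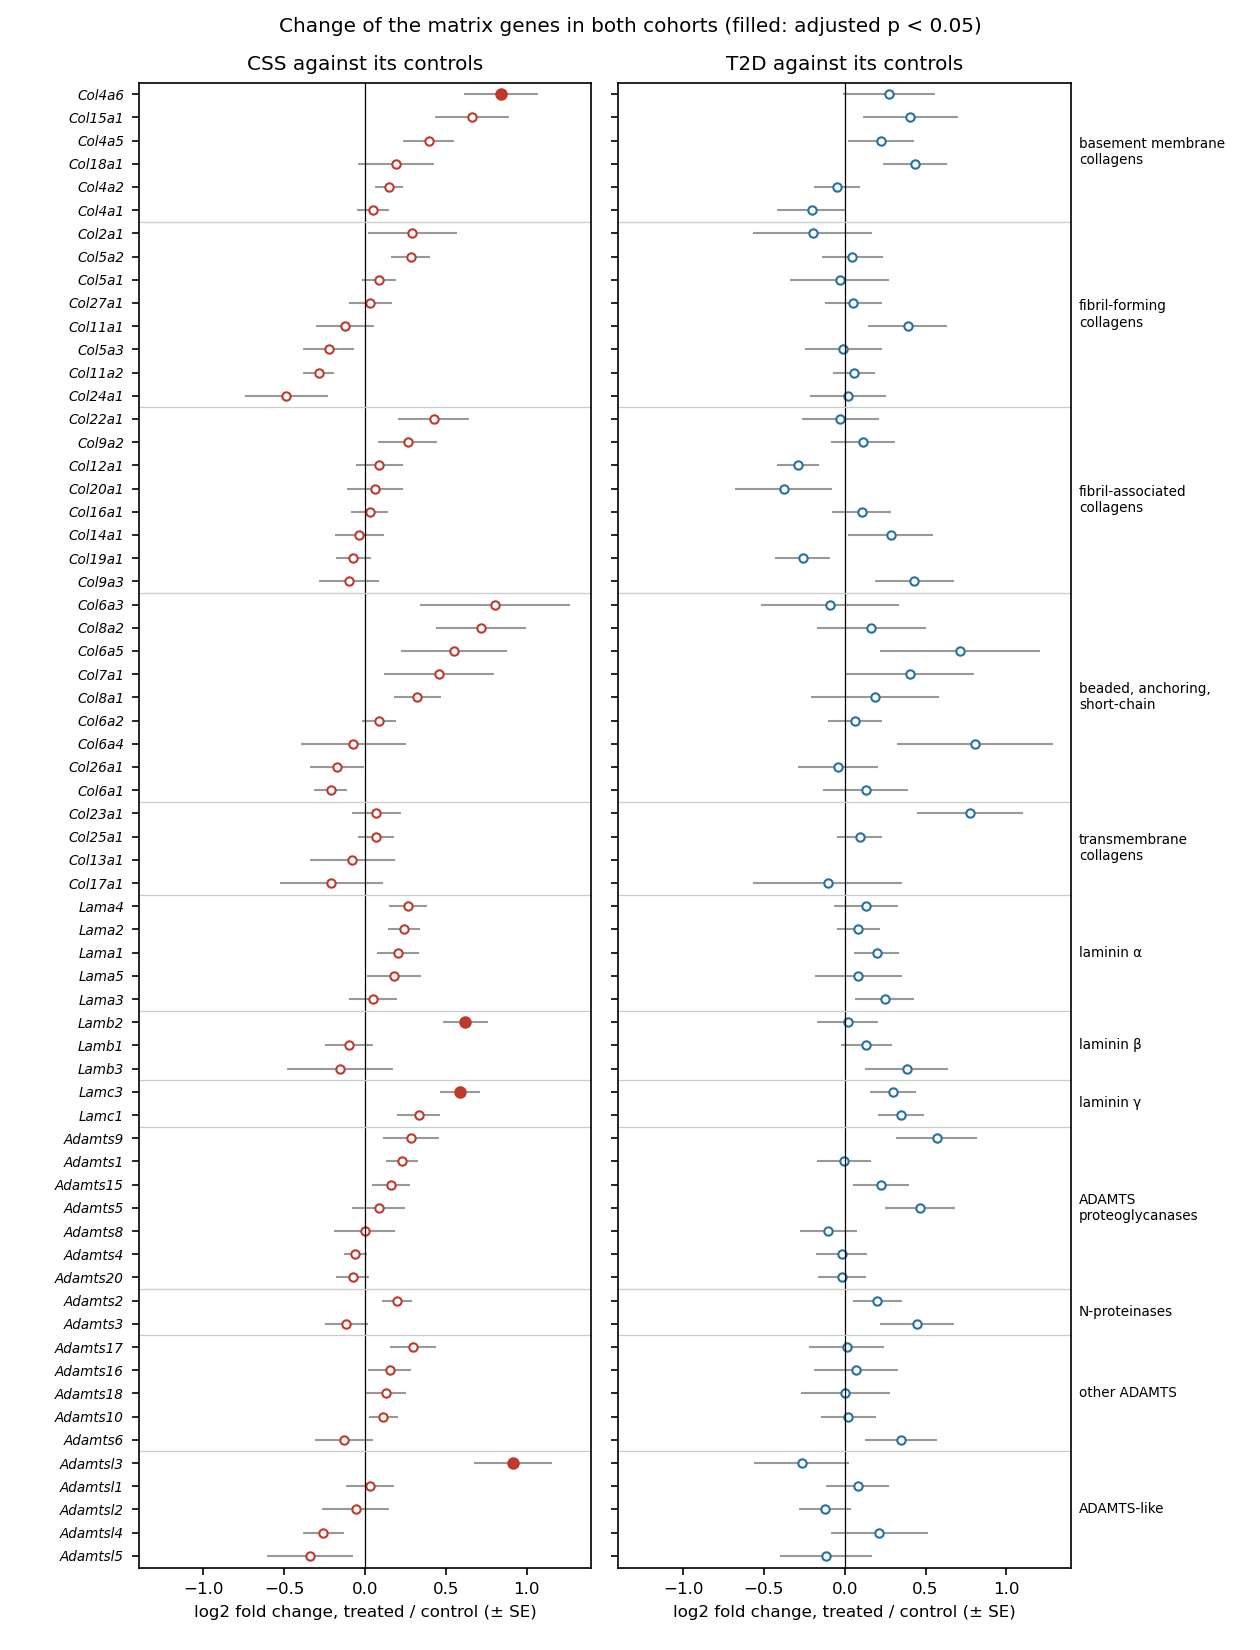
Log2 fold change, treated over control, with its SE for the matrix genes by class, under social stress (left, red) and in diabetes (right, blue). Filled points passed an adjusted p under 0.05, which 4 genes did under stress and 0 in diabetes, and all 6 basement membrane collagens lie right of zero under stress.

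Induced type 2 diabetes was compared with controls of its own cohort. In diabetes 0 of 64 members passed the threshold, as did 0% of all genes in edgeR, so at 6 mice a group the absence of calls does not set the members apart. At an unadjusted p under 0.05 there were 6 members, 5 higher and 1 lower, and 879 genes in all, or 9.38% beside 5.84%. With RIN, the score of RNA integrity (8.7 to 9.4 in T2D and 8.5 to 9.8 in T2D_control), as a covariate there were 2 members and 460 genes, and the median log2 fold change of the members was 0.05. In DESeq2 the count over the whole table was 4 genes, and 0 members were among them. The members leaned upward, with 44 of 64 positive (68.8%, beside 50.8% of all genes) and a median log2 fold change of 0.08, beside 0.00. That lean moved with single libraries: without T2D 4 there were 39 positive members and a median of 0.03, without T2D 1 there were 49 and a median of 0.14, and without T2D_control 4 there were 34 (53.1%). The groups overlapped for all 64 members and were fully separate for 0.146% of all genes.

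Lamc1 was the laminin of smallest p in diabetes, and its values were 24.7, 32.1 and 39.7 CPM (lowest, median, highest) in T2D_control and 27.3, 42.6 and 49.6 CPM in T2D. Of 6 diabetic libraries 5 lay above the highest control. The log2 difference of 0.35 ± 0.14 (SE) had an unadjusted p of 0.0255 and an adjusted p of 0.825 in edgeR. Lamc3 was 6.80 ± 0.996 CPM in T2D_control (SD, n = 6) and 8.36 ± 1.44 in T2D (n = 6). Of 11 laminins 10 had positive changes in diabetes, and 0 passed.

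The collagens of smallest p in diabetes were of 3 kinds. Col23a1, a transmembrane collagen, was 5.30, 7.48 and 7.91 CPM (lowest, median, highest) in T2D_control and 4.67, 10.1 and 25.6 in T2D. Its log2 difference of 0.77 was 0.41 without T2D 4. Col12a1, a fibril-associated collagen, was 38.2 ± 5.34 CPM in T2D_control and 31.2 ± 6.28 in T2D, with all 6 diabetic libraries below the control mean, and Col18a1, the source of endostatin, was 3.69 ± 0.728 and 5.02 ± 1.34. The collagen IV chains were Col4a1 at 61.1 ± 14.6 CPM in T2D_control and 53.1 ± 15.97 in T2D, Col4a2 at 65.5 ± 9.85 and 63.4 ± 14.3, Col4a5 at 4.28 ± 0.744 and 5.03 ± 1.60, and Col4a6 at 1.68 ± 0.164 and 2.05 ± 1.07.

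Of the ADAMTS genes, Adamts9, a proteoglycanase also known from the secretory pathway, was 3.58, 5.10 and 5.70 CPM (lowest, median, highest) in T2D_control and 3.32, 6.90 and 12.8 in T2D, a log2 difference of 0.57 that was 0.33 without T2D 4. Opposite-strand genes cover 11.99% of its exon bases. Adamts5, the main aggrecanase of cartilage, was 2.57 ± 0.532 CPM in T2D_control and 3.55 ± 1.05 in T2D, and Adamts3 was 22.1 ± 6.27 and 30.2 ± 9.43. All 3 had an adjusted p of 0.825 in edgeR, as did Col23a1, Col12a1 and Col18a1.

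Whether the changes of the 2 cohorts differed was tested as the stress change minus the diabetes change over all 28 libraries and 14888 shared genes. The test called 0 of 64 members, beside 0.0806% of all genes. At an unadjusted p under 0.05 there were 4 members (6.25%), Adamtsl3, Lamb2, Col11a2 and Adamts3. Of the 14888 genes 1840 had such a p, a larger share than that of the members. Adamtsl3 had the smallest p of them, with a log2 change of 0.91 under stress and -0.27 in diabetes (difference 1.18, edgeR, adjusted p = 0.221). For Lamb2 the changes were 0.62 and 0.02 (difference 0.59, edgeR, adjusted p = 0.309), and for Lamc3 they were 0.59 and 0.30 (edgeR, adjusted p = 0.556). The 4 rises under stress are thus not shown to differ from the changes in diabetes.

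The cohorts share no libraries. Of 64 members 32 were positive in both, 10 negative in both and 22 opposite in sign, so 65.6% had the same sign, beside 52.1% of all shared genes. The members leaned upward in each cohort by itself (64.6% positive under stress and 68.8% in diabetes), which raises the share of same signs. All genes did not lean so, and their 52.1% is not a like baseline. Across the members, which are not independent replicates, the 2 sets of changes correlated with Pearson r = 0.09 and Spearman rho = 0.13, beside 0.05 and 0.05 over all genes, so the shared sign came with little shared order. Lamc1 and Col15a1 were positive in both cohorts, by 0.33 and 0.66 under stress and by 0.35 and 0.41 in diabetes on the log2 scale, without passing the threshold in either. The value of Col15a1 in diabetes was 0.11 with RIN as a covariate and 0.20 without T2D 6.

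**Figure D4:**
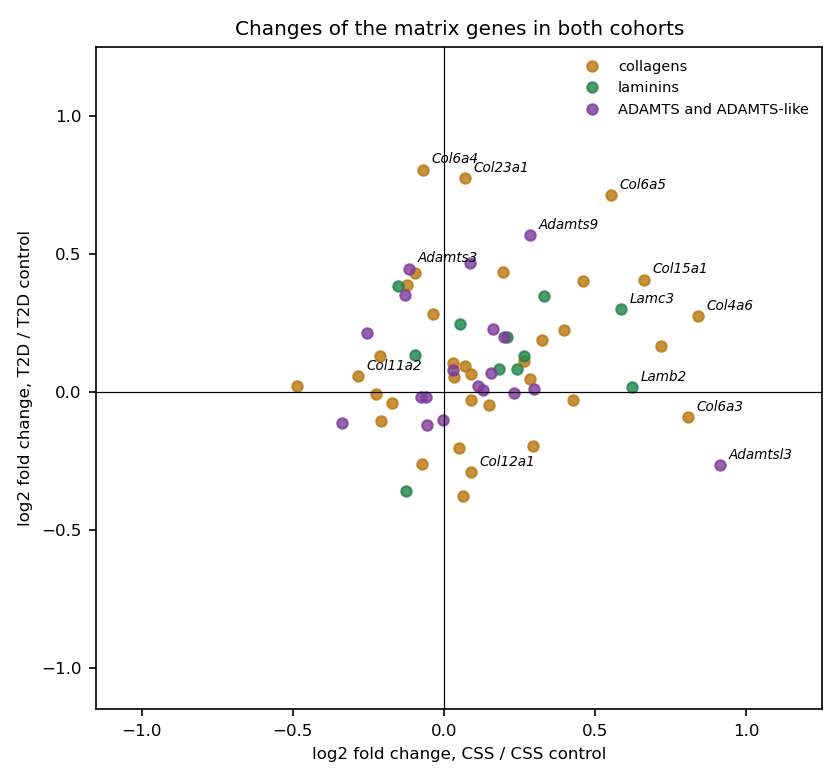
Log2 fold change under social stress (x axis) against that in diabetes (y axis) for the 64 genes of both tables, coloured by family. The points are spread over all quadrants (r = 0.09), with 32 of 64 in the upper right one, and Adamtsl3 lies far to the right and below zero.

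The collagen IV genes stand head to head in pairs, and the chains of a pair assemble with each other. Start sites of Col4a1 and Col4a2 on chromosome 8 are 21 bases apart on opposite strands, and those of Col4a5 and Col4a6 on the X chromosome are 1343 bases apart. Levels were compared over the libraries of each cohort after centring each group on its mean, for 4 relations in all (permutation test within groups, 100000 resamples, two-sided). Col4a1 and Col4a2 correlated with r = 0.20 in the stress cohort (n = 16, adjusted permutation p = 0.494, raw 0.494; rho = 0.04, adjusted p = 0.891, raw 0.891) and 0.01 without the 2 libraries farthest out. In the diabetes cohort r was 0.50 (n = 12, adjusted permutation p = 0.182, raw 0.137; rho = 0.47, adjusted p = 0.286, raw 0.143) and 0.17 without T2D 1 and T2D 4, on which it rested. For Col4a5 and Col4a6 r was 0.56 in the stress cohort (adjusted permutation p = 0.111, raw 0.0278; rho = 0.46, adjusted p = 0.286, raw 0.0867) and 0.65 without CSS 2 and CSS_control 8. In the diabetes cohort it was 0.67 (adjusted permutation p = 0.156, raw 0.0778; rho = 0.43, adjusted p = 0.304, raw 0.228) and 0.59 without T2D 4 and T2D 6. None of the 4 relations passed 0.05 after adjustment. Ranked by correlation with Col4a1 in the stress cohort, Col4a2 came 3840th of 15096 genes, and with Col4a5, Col4a6 came 549th. In the diabetes cohort these ranks were 1784 and 309 of 15053 genes.

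**Figure D5:**
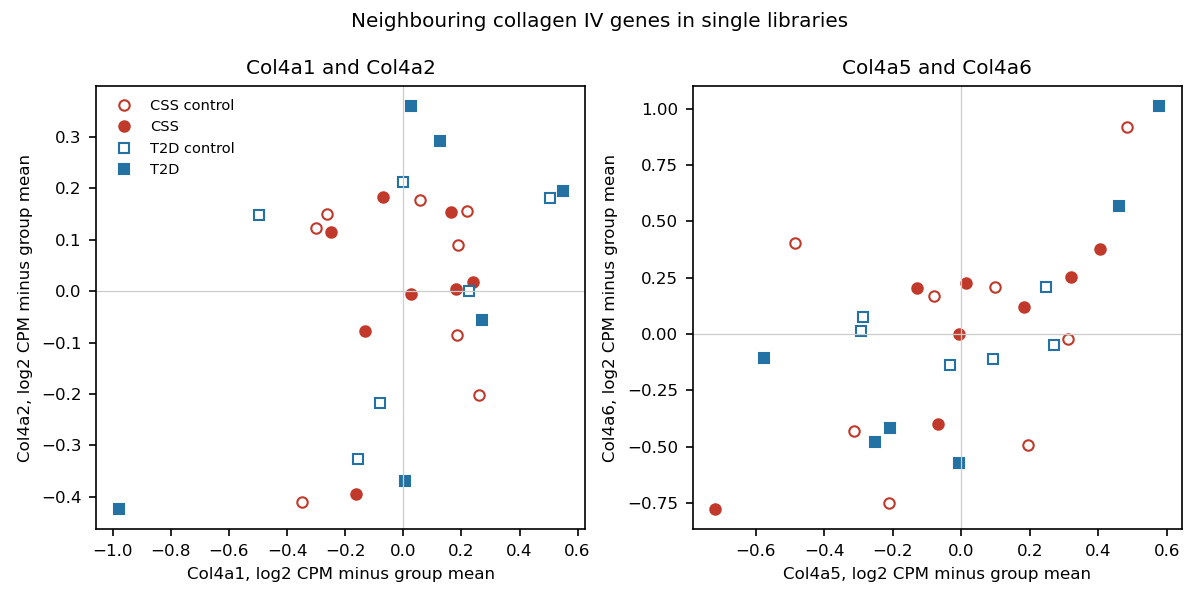
Log2 CPM minus the group mean of neighbouring collagen IV genes in each library, Col4a1 against Col4a2 (left) and Col4a5 against Col4a6 (right), with circles for the stress cohort, squares for the diabetes cohort and open symbols for controls. The left pair shows r = 0.20 in the stress cohort and the right pair 0.56.

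The genes that work with these proteins were taken from lists by role. Beside the counts below, 4.52% of all genes passed the threshold under stress and 51.3% had positive changes. Under social stress 1 of 13 collagen and laminin receptors rose, the collagen-binding integrin Itga1 (log2 0.36, edgeR, adjusted p = 0.0457), and 12 of 13 were positive. Of 21 genes of collagen folding, crosslinking and processing 2 rose and 1 fell. P4ha1, the catalytic subunit of prolyl 4-hydroxylase, rose from 45.1 ± 5.70 to 59.9 ± 10.7 CPM (SD, n = 8 each; log2 0.41, edgeR, adjusted p = 0.0279), and the collagen chaperone Serpinh1 rose by 0.31 (edgeR, adjusted p = 0.0499). P4hb, the other subunit of that enzyme and a protein disulfide isomerase, fell by 0.23 on the log2 scale (edgeR, adjusted p = 0.0433). Leaving out 1 library, Serpinh1 and Itga1 passed in 3 of 16 fits each, P4hb in 5 and P4ha1 in 11.

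Of 11 proteoglycans and perineuronal net partners 1 rose, Tnr, which crosslinks the nets (log2 0.22, edgeR, adjusted p = 0.0459, passing in 6 of 16 fits without 1 library). Of 10 basement membrane partners 0 passed and 9 were positive, the smallest adjusted p being 0.0799 for fibronectin, Fn1. None of 10 metalloproteinases and inhibitors and none of 14 genes of TGF-beta signalling and fibrillin microfibrils passed, with smallest adjusted p-values of 0.158 for Mmp24 and 0.114 for Ltbp1 in edgeR. In diabetes 0 genes of any of these lists passed, and P4ha1 was 68.2 ± 16.7 CPM in T2D_control and 51.0 ± 15.2 in T2D (n = 6 each). The difference of its changes between the cohorts, 0.82 on the log2 scale, had an adjusted p of 0.131 in edgeR. The fibrillar collagens left out of the members gave a rise of Col1a1 under stress, from 4.26 ± 0.859 to 9.31 ± 3.60 CPM (log2 1.14, edgeR, adjusted p = 0.00999), while Col1a2 at 0.65 and Col3a1 at 0.43 did not pass.

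Markers of other cell types were measured in the same libraries. Beside their counts, 4.52% of all genes passed under stress and 0% in diabetes, and 51.3% and 50.8% were positive. All 14 fibroblast markers had positive changes under stress and 1, Col1a1, passed. Their summed level was 122 to 194 CPM in CSS_control and 120 to 281 in CSS, and in diabetes 113 to 132.8 in T2D_control and 115 to 258 in T2D, with 13 of 14 positive. Endothelial markers summed to 169 to 204 CPM in CSS_control and 163 to 240 in CSS, with 2 of 10 higher, and the 9 measured pericyte and smooth muscle markers to 185 to 255 and 185 to 284, with 0 called. Astrocyte markers, of which 2 of 7 rose, summed to 3209 to 3753 CPM in CSS_control and 3628 to 4536 in CSS, and oligodendrocyte precursor markers, of which 2 of 8 rose, to 374 to 434 and 398 to 485. Tnr, reported above with the perineuronal nets, is 1 of those 2 precursor markers. Pdgfra is listed for both fibroblasts and precursors, and Cspg4 for both pericytes and precursors. In diabetes 0 markers of any list passed, and 5 of 10 endothelial and 3 of 7 astrocyte markers were positive. Of 7 striatal neuron markers 0 were positive under stress and 7 in diabetes, with a median log2 change of 0.53 there and 0 called in either cohort. Microglial markers moved the other way, with 5 of 9 lower under stress. Choroid plexus was represented in the stress table by 2 of 6 markers with a sum of no more than 21.3 CPM. The part of these cell types in the changes of the matrix genes was not tested.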

How the data were processed

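The values are estimated counts of genes, as deposited by the authors in 1 table for CSS and 1 for T2D. Salmon 1.1.0 and mm10 are named in the data, per the submitters' processing notes. The use of strand, any scaling for length, the summing of transcripts and the removal of low genes are not given in the sources. Every listed gene reached 1.01 CPM in 8 libraries (CSS) or 6 (T2D). Libraries were made with a stranded total RNA kit after ribosomal depletion, per the labels' protocols.

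Values were rounded and tested per cohort with edgeR 4.0.16 (R 4.3.3; TMM scaling, default filter, which removed no gene, robust quasi-likelihood test), with Benjamini-Hochberg adjustment over all genes. The standard error is the log2 fold change divided by the root of F. Tests were checked on simulated data in which all changed genes had the same fold size and all genes the same dispersion. That check does not cover the changes and spreads of the members. Lengths, overlaps and coordinates came from GENCODE M21 (GRCm38), in which all 65 members were found. DESeq2 1.42.0 and the other alternatives are given in the closing section. The labels state no pairing of mice by replicate number. Same-numbered libraries correlated from -0.16 to 0.33 (CSS) and from -0.01 to 0.13 (T2D), which cannot exclude a pairing.

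Named members were those past 0.05, the 3 of smallest p per family and cohort, the 3 of highest CPM per kb per family in controls, and collagen IV. Members and lists were chosen with earlier results of these data known. Col4a3 and Col4a4 were not analysed here. Of the members, 1 is counted but not reported here or drawn in the plots by gene name.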

Additional observations from a re-analysis of the deposited data

Results flagged for a closer look

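Over the 96 groups of libraries formed by 24 named members and 4 groups of mice, 2 libraries lay far from the rest of their group by Dixon's test at 95%, which chance gives in about 1 in 20 groups. Adamts1, a protease of versican and aggrecan, was 15.4 CPM in T2D 4, beside 10.3 CPM in the nearest diabetic library, a gap of 0.67 of the range of the group. Lamc1 was 51.4 CPM in CSS_control 8, beside 34.9 CPM in the nearest control, a gap of 0.59 of the range.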

How the results depend on the processing

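Lamc3, Lamb2, Adamtsl3 and Col4a6 had positive log2 changes under stress in all 25 alternatives, from 0.51 to 0.67, 0.40 to 0.89, 0.76 to 1.08 and 0.72 to 1.01. The count of genes called under stress was 1280 in DESeq2 (6 members), 0 against CSS_control 5 to 8 (0 members) and 1130 against CSS_control 1 to 4 (2 members). RLE scaling (667 genes), the stricter filter (707), no robust estimation (687) and RIN as a covariate (649) each gave 4 members. Leaving out 1 library gave 222 to 794 genes and 1 to 6 members. In diabetes DESeq2 called 4 genes and every other setting 0. The difference between cohorts, 12 genes, was 112 in DESeq2, 0 without robust estimation, 0 with RIN, 0 with CSS_control 5 to 8, 150 with CSS_control 1 to 4 and 0 to 32 without 1 library, with 0 members in each. With the replicate block the counts were 478 genes and 3 members under stress (Lamb2 at adjusted p = 0.0671), 0 in diabetes and 32 genes for the difference. Not every library correlated best with its own number (2 of 8 pairs in CSS and 0 of 6 in T2D did). The cause of these shifts was not tested. Genes near 1 CPM, such as Col4a6, rest on few counts.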

Other observations

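Type VI collagen is built from 1 chain each of Col6a1, Col6a2 and 1 other gene such as Col6a3, but the length-scaled level of Col6a1 was far above that of its partners in every group. The ratio of Col6a1 to Col6a2 in CPM per kb had a median of 16.1 in CSS_control (range 10.7 to 19.0), 12.2 in CSS (10.6 to 15.4), 11.1 in T2D_control (8.94 to 14.4) and 11.3 in T2D (6.57 to 23.3). The size of this ratio depends on the length used. With the longest transcript in place of all exons, the CSS_control means were 31.9 CPM per kb for Col6a1 and 3.37 for Col6a2. The ratio of Col6a1 to Col6a3, by exon length, ran from 14.2 to 141 over all libraries. These genes were singled out after their values were seen.

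Col24a1, a minor fibril-forming collagen also chosen after its values were seen, split the stress controls: it was 16.4 ± 4.09 CPM (SD, n = 4) in CSS_control 1 to 4 and 8.78 ± 1.14 (n = 4) in CSS_control 5 to 8. Its log2 change under stress was -0.87 against the first set and 0.03 against the second, and -0.49 against all 8 controls (edgeR, adjusted p = 0.285).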
